A study of Mus musculus with 8 samples.

Results

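Granulocyte-macrophage progenitors (GMP) from the bone marrow of normal mice were compared with common myeloid progenitors (CMP) from normal mice, on 4 of the 8 arrays of the series. A gene was a member when it reached a signal of 50 on at least 2 of these 4 arrays, read by its brightest probe set on average. This gave 8395 of 18193 genes with a probe set of 1 gene symbol. The normal mice were males of the genotype G0 TERTER/+, on a background given as mainly C576BL/6. Both CMP and GMP therefore carried 1 copy of TERTER, which as background encodes telomerase reverse transcriptase joined to a ligand-dependent estrogen receptor domain. Neither the age of the mice nor any ligand given to them is stated in the sources used here. Each array held cells sorted from a pool of 4 mice, and each of the groups had 2 pools of 5000 to 20000 cells. The other 4 arrays, 2 of CMP and 2 of GMP, came from male G4/G5 TERTER/ER mice, later generations homozygous for the allele and labelled as having dysfunctional telomeres. They entered the estimate of spread and gave a second measurement of the same step. Whether CMP and GMP pools with the same number came from the same mice is not stated, so the p-values measure only the spread between pools.

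CMP are the bone marrow progenitors from which granulocytes, monocytes, erythrocytes and megakaryocytes derive, and GMP are their progeny restricted to granulocytes and monocytes. In textbook accounts the step is governed by the C/EBP factors, PU.1 and Gfi1 on the myeloid side, and by Gata1, Gata2 and their partners on the erythroid and megakaryocytic side. GMP begin to make the enzymes of the primary granules, which are synthesised in the endoplasmic reticulum and stored before the cell matures. The antibody gates of the sort are not given in the sources used here, but by convention GMP are separated from CMP by their higher surface level of Fc gamma receptors.

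The values are MAS5 signals of an Affymetrix mouse 3′ array, scaled so that the trimmed mean of each array is 100. Changes are differences of log2(signal + 10), GMP minus CMP, and such differences are too small for dim genes. Adjusted p-values are from limma with Benjamini-Hochberg adjustment over 8395 genes, and a gene was called where that value was under 0.05. The median signal of a normal array ran from 14.3 to 18.5. The median absolute log2 difference between the pools was 0.242 in CMP and 0.141 in GMP. On the first principal component, which held 58.7% of the variance of the 8 arrays, the CMP pools of normal mice lay at -29.35 and -34.69 and the GMP pools at 23.89 and 20.77. The 1st G4/G5 CMP pool stood apart from its group, at -10.05. Tert itself was read by a pair of probe sets, which did not exceed 14.5 on the normal arrays.

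Of the 8395 genes, 997 were higher in GMP (11.9% of those tested) and 975 were lower (11.6%). Each count of called list members below is to be set beside these shares. In all 1972 called genes both GMP arrays lay on the same side of both CMP arrays, an arrangement that 32.9% of tested genes showed with GMP higher and 33.1% with GMP lower. The change was at least 2-fold in 236 of the higher and 346 of the lower genes, and at least 4-fold in 47 and 44. A further 139 tested genes reached a signal of 50 on both GMP arrays and neither CMP array, counted whether called or not, and 306 showed the reverse. The median change over all genes was -0.0047 and the SD was 0.615. Members nearest to the filter had a second highest signal of 50.05, against 49.99 for the nearest gene outside. The counts depended on single pools. Leaving out the 1st GMP pool left 65 higher and 78 lower, the 2nd GMP pool 278 and 329, the 2nd CMP pool 617 and 527, and the 1st CMP pool 892 and 843. The G4/G5 pools enter only the spread: without the 1st or 2nd G4/G5 CMP pool 2573 or 2580 genes were called, and without the 1st or 2nd G4/G5 GMP pool 1186 or 1187. A set of 141 genes, 65 higher and 76 lower, was called with each of the 8 arrays left out in turn, and genes of that set are described below as called in every leave-one-out. In bulk samples such as these, fewer cells of a type and less RNA per cell cannot be told apart.

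**Figure D1:**
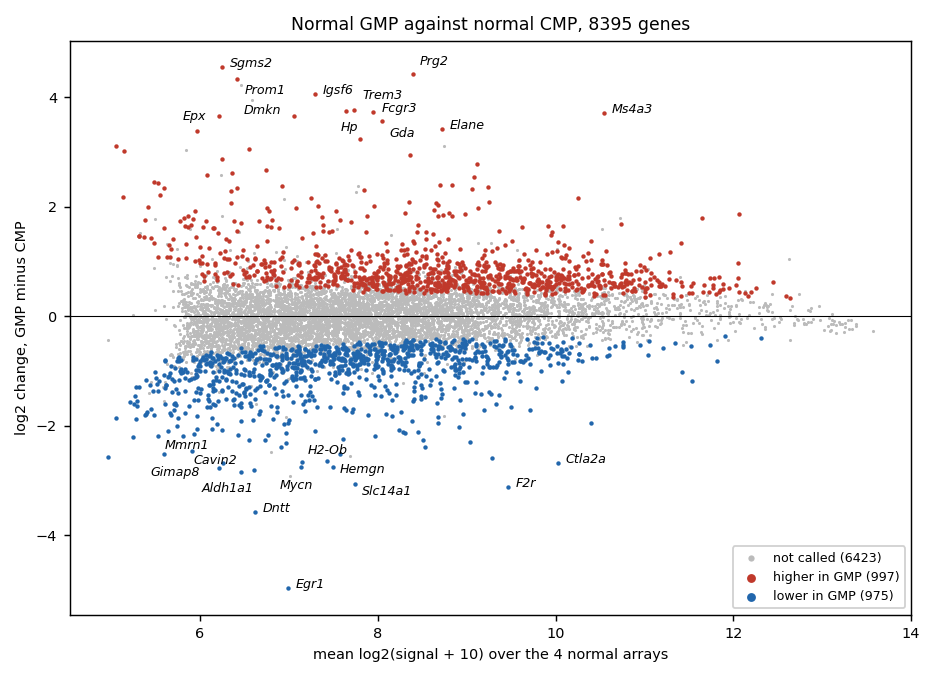
Log2 change (GMP minus CMP, vertical axis) against mean log2(signal + 10) over the 4 normal arrays (horizontal axis), 1 point per gene, red for the 997 genes called higher in GMP, blue for the 975 called lower and grey for the 6423 not called. The 12 largest rises and 12 largest falls are named; Sgms2 lies at 4.56 and Egr1 at -4.97.

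The largest rises joined granulocyte genes with genes of less familiar roles. Elane, neutrophil elastase, read 72.3 and 194 in the CMP pools and 1182 and 1601 in the GMP pools, a change of 3.42 ± 0.39 (SE, 2 pools a group, adjusted p = 0.0020), and it was the 1 gene of these 12 called in every leave-one-out. Ms4a3, a membrane protein that marks granulocyte-monocyte progenitors, read 538 and 299.6 in CMP and 5503 and 5312 in GMP (3.72 ± 0.65, adjusted p = 0.0076). Both GMP pools stood far above both CMP pools in each of these genes. Sgms2, a sphingomyelin synthase, read 14.2 and 0.19 in CMP, close to nothing, and 350 and 370 in GMP (4.56 ± 0.84, adjusted p = 0.0090). Prom1, which encodes the surface protein CD133 of progenitor cells, read 23.0 and 1.05 in CMP and 405 and 345 in GMP (4.33 ± 1.08, adjusted p = 0.024). Igsf6, an immunoglobulin-family receptor of myeloid cells, read 11.5 and 58.4 against 602 and 660.4 (4.06 ± 0.64, adjusted p = 0.0056). In these genes the CMP pools were low and differed from each other, and both GMP pools were high. The other large rises were Prg2 (4.42), Trem3 (3.77), Hp (3.75), Fcgr3 (3.73), Epx (3.66), Dmkn (3.65) and Gda (3.57). After removal of the 1st GMP pool, the changes of these 12 genes ran from 3.49 to 4.88 and only Elane was called; without the 2nd, Sgms2, Prg2, Prom1, Trem3, Hp, Fcgr3, Epx and Gda were not called, with changes from 3.34 to 4.52, and without the 2nd CMP pool Prg2, Prom1, Trem3 and Gda were not called, with changes from 2.69 to 3.72. Gda was also not called without either G4/G5 GMP pool.

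Among the largest falls, genes of stem cells, megakaryocytes and lymphoid priming stood side by side. Ctla2a, a cysteine protease inhibitor, read 2523 and 2762 in CMP and 383 and 422 in GMP (-2.68 ± 0.13, adjusted p = 0.00013). Slc14a1, a urea transporter of red cells, read 721 and 515 in CMP and 51.5 and 79.2 in GMP (-3.06 ± 0.31, adjusted p = 0.0014). Aldh1a1, a retinaldehyde dehydrogenase, read 238 and 214 against 20.3 and 25.9 (-2.84 ± 0.29, adjusted p = 0.0014). In each of these 3 genes both CMP pools stood several fold above both GMP pools. F2r, a thrombin receptor, read 3158 and 1365 in CMP and 281 and 189.8 in GMP (-3.11 ± 0.38, adjusted p = 0.0025). Dntt, the terminal transferase of lymphoid precursors, read 713 and 149 in CMP and 10.98 and 28.9 in GMP (-3.57 ± 0.66, adjusted p = 0.0090), so that its CMP pools differed by several fold. Egr1, an immediate early transcription factor, had the largest fall of all, from 254 and 1920 to 18.7 and 8.06 (-4.97 ± 0.74, adjusted p = 0.0046), and the 2nd CMP pool set much of its size: without it the change was -3.54 (adjusted p = 0.0031). The remaining falls were Cavin2 (-2.80), Gimap8 (-2.78), Hemgn (-2.76), Mycn (-2.75), Mmrn1 (-2.69) and H2-Ob (-2.65). All but Dntt, Cavin2 and Gimap8 were called in every leave-one-out, and those 3 missed the threshold without the 1st GMP pool (-3.12, -2.77 and -2.48).

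Promoters are shown for 3 of the largest rises and 3 of the largest falls, and for Elane, as sequences in front of genes with large changes. These genes had an entry in the RefSeq table used here (GRCm38.p6). Genes on 1 chromosome were left out of the printing, and Egr1 and Slc14a1, which fell by more than Aldh1a1, are not shown. Each runs from 250 bases before to 50 bases after the transcription start, 5′ to 3′ on the gene's strand, and the table's first entry was taken where a gene had several starts (6 for Sgms2, 2 for Prom1 and 2 for Aldh1a1). Capitals mark matches on either strand to the letters of GATA factors, C/EBP, PU.1, RUNX, KLF and the E-box, which are spelled out with their shares over all genes after the sequences. No 2 matches overlap in these windows.
Sgms2, chr3:131491394-131491693, minus strand: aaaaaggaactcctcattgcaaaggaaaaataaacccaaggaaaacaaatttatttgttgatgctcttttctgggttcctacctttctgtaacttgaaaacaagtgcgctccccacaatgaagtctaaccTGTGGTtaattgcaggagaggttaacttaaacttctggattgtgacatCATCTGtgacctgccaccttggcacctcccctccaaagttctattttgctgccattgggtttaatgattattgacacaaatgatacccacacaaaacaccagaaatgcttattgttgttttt
Prom1, chr5:44101687-44101986, minus strand: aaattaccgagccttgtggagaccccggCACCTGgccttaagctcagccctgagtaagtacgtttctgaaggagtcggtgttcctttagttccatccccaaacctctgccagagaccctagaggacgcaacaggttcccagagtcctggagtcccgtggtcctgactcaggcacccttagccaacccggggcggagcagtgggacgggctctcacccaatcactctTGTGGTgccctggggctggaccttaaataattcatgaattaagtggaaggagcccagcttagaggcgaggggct
Igsf6, chr7:121074481-121074780, minus strand: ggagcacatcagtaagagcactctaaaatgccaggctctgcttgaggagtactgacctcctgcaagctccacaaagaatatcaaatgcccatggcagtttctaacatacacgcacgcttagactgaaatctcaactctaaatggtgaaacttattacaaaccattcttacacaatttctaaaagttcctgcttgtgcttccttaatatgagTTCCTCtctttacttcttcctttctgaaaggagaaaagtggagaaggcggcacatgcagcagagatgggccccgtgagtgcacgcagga
Elane, chr10:79886062-79886361, plus strand: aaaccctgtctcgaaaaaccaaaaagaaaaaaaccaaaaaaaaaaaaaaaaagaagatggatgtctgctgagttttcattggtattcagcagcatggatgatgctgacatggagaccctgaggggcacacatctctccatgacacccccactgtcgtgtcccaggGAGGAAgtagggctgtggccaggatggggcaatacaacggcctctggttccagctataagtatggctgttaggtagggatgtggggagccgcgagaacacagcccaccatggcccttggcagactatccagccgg
Dntt, chr19:41029025-41029324, plus strand: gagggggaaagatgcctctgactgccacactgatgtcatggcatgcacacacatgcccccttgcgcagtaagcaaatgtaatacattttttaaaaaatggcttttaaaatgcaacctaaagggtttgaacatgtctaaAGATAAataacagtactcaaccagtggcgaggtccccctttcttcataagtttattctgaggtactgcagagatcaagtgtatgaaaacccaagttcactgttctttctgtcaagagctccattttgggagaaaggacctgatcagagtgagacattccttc
F2r, chr13:95618417-95618716, minus strand: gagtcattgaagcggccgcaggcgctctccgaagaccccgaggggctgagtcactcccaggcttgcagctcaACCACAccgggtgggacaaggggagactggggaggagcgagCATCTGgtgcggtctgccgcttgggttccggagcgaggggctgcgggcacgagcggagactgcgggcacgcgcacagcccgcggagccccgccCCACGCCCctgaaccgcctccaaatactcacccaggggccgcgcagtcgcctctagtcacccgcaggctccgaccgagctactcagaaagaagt
Aldh1a1, chr19:20492333-20492632, plus strand: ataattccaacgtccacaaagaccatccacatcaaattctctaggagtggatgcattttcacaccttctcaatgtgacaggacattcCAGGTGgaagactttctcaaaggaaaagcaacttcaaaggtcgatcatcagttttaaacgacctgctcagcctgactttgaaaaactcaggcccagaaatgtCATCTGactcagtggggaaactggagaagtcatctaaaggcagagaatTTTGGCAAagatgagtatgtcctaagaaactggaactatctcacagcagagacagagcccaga
The 4 promoters of rising genes held RUNX letters in Sgms2 and Prom1 and PU.1 letters in Igsf6 and Elane, and those of falling genes held GATA letters in Dntt, RUNX and KLF letters in F2r and C/EBP letters in Aldh1a1. E-box letters stood in Sgms2, Prom1, F2r and, at 2 places, Aldh1a1.

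For the motif shares over all genes, a promoter was found for 821 of the 997 higher, 792 of the 975 lower and 6934 of the 8395 tested genes. The C/EBP letters TTGCNNAA stood in 9.87% of promoters of higher genes, 6.94% of lower genes and 7.92% of all tested genes, against 10.8% of all 27025 promoters in the table. The RUNX letters TGTGGT stood in 13.8%, 11.1%, 12.1% and 16.9% of the same sets. The GATA letters AGATAA stood in 5.6%, 6.69%, 5.9% and 11.4%, and the PU.1 letters GAGGAA in 26.2%, 28.9%, 26.6% and 28.3%. The KLF letters CCACNCCC stood in 21.8%, 23.6%, 23.4% and 17.6%, and the E-box letters CAGNTG in 43.2%, 41.8%, 40.5% and 51.1%. The sets differed in base composition. Their median GC content was 60%, 62.3%, 61.3% and 52.7%, and their median number of CpG dinucleotides (C followed by G) was 20, 21, 22 and 7. The part of base composition in the shares was not tested. These shares are descriptions with no test, and a match is not a binding site.

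The sorted populations carried the markers of their labels. On the GMP side Elane, Ms4a3, Prtn3, Ctsg, Gfi1 and Fcgr3 were all called higher in GMP, and Mpo, read at 2852 and 6814 in CMP and 9505 and 8680 in GMP, had a change of 1.04 ± 0.33 with an adjusted p of 0.05004, just short of a call. On the CMP side Gata1, Gata2 and Klf1 were called lower in GMP. Epor (66.7 and 63.2 against 28.9 and 30.4), Pf4 (829 and 755 against 192 and 248) and Itga2b (447 and 356 against 243 and 265) were not called, with adjusted p-values of 0.14, 0.054 and 0.16, although their groups did not overlap. Car1, an early erythroid carbonic anhydrase, read 996 and 262 in CMP and 143 and 418 in GMP, overlapping, with an adjusted p of 0.31. Cd34, which both populations carry by definition, read 1098 and 2228 in CMP and 1019 and 1139 in GMP (adjusted p = 0.26). Of the 7 tested genes of the sorting gate and lineage list, the Fc gamma receptors Fcgr3 and Fcgr2b were higher (3.73 and 2.08) and Kit, the stem cell factor receptor, and Slamf1 were lower (-1.02 and -1.87). Fcgr2b read 219 and 369 in CMP and 1272 and 1211 in GMP and was called in every leave-one-out. Kit read 1149 and 2214 against 723 and 839.6 and was not called without the 2nd CMP pool, either GMP pool or either G4/G5 GMP pool, with changes from -0.55 to -1.13 where a normal pool was left out.

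**Figure D2:**
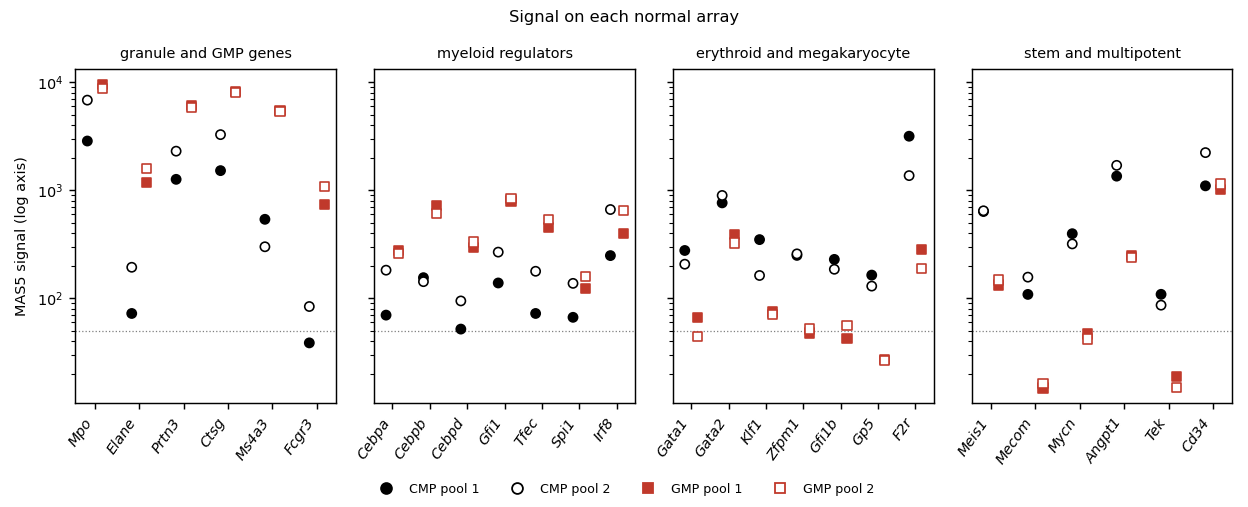
MAS5 signal on a log axis for 26 genes on each of the 4 normal arrays, circles for CMP and squares for GMP, filled for pool 1 and open for pool 2, with a dotted line at the filter of 50. The granule genes other than Mpo lie well higher in GMP, Gata1 to F2r and Meis1 to Tek lie lower, and Spi1, Irf8 and Cd34 overlap.

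The proteins of the primary granules rose as a group. Of 14 tested members 9 were higher, 0 were lower and all 14 changes were positive, with a median of 0.92 beside -0.0047 over all genes. Prtn3, proteinase 3, read 1260 and 2297 in CMP and 6115 and 5806 in GMP (1.80 ± 0.27, adjusted p = 0.0048). Ctsg, cathepsin G, read 1517 and 3268 against 8221 and 8051 (1.86 ± 0.29, adjusted p = 0.0056). For both proteases, as for Mpo and Elane, the 2nd CMP pool lay above the 1st, and both GMP pools lay above both CMP pools. Cst7, an inhibitor of granule cathepsins, read 445 and 429 against 1373 and 1377 (1.63 ± 0.16, adjusted p = 0.0013) and Nkg7 read 704 and 764 against 1465 and 1623 (1.06 ± 0.15, adjusted p = 0.0038). Both were called in every leave-one-out. Gusb (0.80), Serpinb1a (0.78) and Ctsc (0.63), the protease that activates the granule serine proteases, were also higher. The lysozyme genes Lyz1 and Lyz2 overlapped between the groups (0.07 and 0.17), and Srgn and Plac8, already high in CMP, had changes of 0.18 and 0.41 that were not called. In a fit lacking the 1st GMP pool, 3 members were called.

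The myeloid regulators did not move as a block. Of 19 tested granulocyte and monocyte transcription factors 5 were higher and 4 lower, with a median of 0.02. Of the 16 at 50 on all 4 arrays 4 were higher and 3 lower (median -0.0079). A further 2 members passed the filter only through GMP and 1, Mycn, only through CMP. Cebpb read 155 and 142 in CMP and 716 and 612 in GMP (2.08 ± 0.25, adjusted p = 0.0023) and Gfi1, a repressor needed for granulocytes, read 139 and 267 against 795 and 845 (2.03 ± 0.25, adjusted p = 0.0025); both were called in every leave-one-out. Cebpd (51.9 and 94.5 against 296 and 331, change 2.01), Tfec (2.01), a relative of Mitf in macrophages, and Nfil3 (1.47), a basic leucine zipper factor, rose too. Cebpa, the factor required to form GMP, read 69.8 and 182 in CMP and 275 and 259 in GMP (1.16 ± 0.41, adjusted p = 0.069): the groups did not overlap but it was not called, and without the 2nd CMP pool it was (1.79, adjusted p = 0.018). Spi1, which encodes PU.1, read 66.6 and 137 against 124 and 160.3 (0.51 ± 0.34, adjusted p = 0.31), and Irf8, a regulator of monocytes, read 248 and 662 against 399 and 647 (0.32 ± 0.44, adjusted p = 0.63); both overlapped. The 4 that fell were Mycn (-2.75), Runx1 (-0.89), Zeb2 (-0.85) and Hhex (-0.83), each also active in stem or multipotent cells. Myb (-0.14) and Myc (-0.21) were not called. Without the 1st GMP pool 2 rises and 1 fall remained called in this list.

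The erythroid, megakaryocyte and mast cell factors fell. Of 22 tested, 14 were lower and 0 higher, with a median of -1.08 and 19 changes negative, and 7 were called without the 1st GMP pool. Of the 18 at 50 on all 4 arrays 10 were lower and 0 higher (median -0.60), and 1 member passed the filter only through CMP. Zfpm1, a GATA cofactor also called Fog1, read 249.3 and 258 in CMP and 47.6 and 52.0 in GMP (-2.14 ± 0.17, adjusted p = 0.00064). Gata1 read 277 and 207 against 66.9 and 44.1 (-1.95 ± 0.32, adjusted p = 0.0067), and Gata2 read 763 and 894 against 387 and 324 (-1.20 ± 0.18, adjusted p = 0.0046). Gfi1 rose, as given above, while its erythroid relative fell: Gfi1b went from 229 and 185 to 42.1 and 56.2 (-1.88 ± 0.23, adjusted p = 0.0025). All 4, and Tal1 (-1.19), Bcl11a (-1.60) and Mef2c (-1.78), were called in every leave-one-out. Sox6 (-2.17), Klf1 (-1.59), Cbfa2t3 (-1.55), Ikzf2 (-1.12), Nfe2 (-1.03), Erg (-0.60) and Bach1 (-0.42) fell with less margin. Lyl1 (0.23), Lmo2 (-0.29), Ldb1 (-0.59), Fli1 (-0.49), Mafg (0.27) and Mitf (0.25) were not called, though Lyl1, Lmo2 and Ldb1 encode partners of Tal1.

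Of 20 tested megakaryocyte and platelet genes 13 were lower and 0 higher (median -1.49). A set of 7 of the 20 lay under 50 on both GMP arrays and passed the filter only through CMP; of the 12 at 50 on all 4 arrays 7 were lower (median -1.28). Plek, a platelet kinase substrate, read 1140 and 1177 in CMP and 215 and 239.8 in GMP (-2.30 ± 0.26, adjusted p = 0.0019). Gp5, a subunit of the platelet von Willebrand receptor, read 164 and 129.6 against 27.0 and 26.6 (-2.08 ± 0.24, adjusted p = 0.0020). Vwf itself read 109.6 and 71.0 against 9.43 and 13.9 (-2.19), with a call that was lost without any 1 of the normal pools or either G4/G5 GMP pool. In these genes both GMP pools lay well below both CMP pools. After removal of the 1st GMP pool, 7 members were called. Of 16 tested erythroid effector genes 7 were lower and 2 higher (median -0.997), the rises being 12.5% beside 11.9% of all genes. Of the 9 at 50 on all 4 arrays 3 were lower and 2 higher. Car2, carbonic anhydrase 2, read 2800 and 2503 in CMP and 626 and 729.8 in GMP (-1.95 ± 0.14, adjusted p = 0.00038). The higher genes were Tfrc, the transferrin receptor (0.91), and Mt1, metallothionein 1 (2.32). Mt1 had a change of 1.45 without the 2nd CMP pool (adjusted p = 0.21) and was also not called without either GMP pool of either genotype. In a fit lacking the 1st GMP pool, 2 falls and no rise were called in this list, and without the 2nd GMP pool 5 falls and no rise. The summed signal of the erythroid list was 7247 and 5237 in CMP and 4051 and 4202 in GMP. Genes of mature red cells were near 0 in all 4 pools: Hba-a1 did not exceed 2.53 and Slc4a1, the red cell anion exchanger, did not exceed 8.78.

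Of 13 tested heme and iron genes 3 were higher and 0 lower (median 0.21; 1 called without either GMP pool). Alas1, the housekeeping first enzyme of the pathway, read 164 and 278 in CMP and 1145 and 1460 in GMP (2.54 ± 0.28, adjusted p = 0.0018) and was called in every leave-one-out. Its erythroid counterpart Alas2 did not exceed 1.67 on any normal array. Hmox2 (0.46) was the 3rd with Tfrc, and Alad (-0.54), Urod (-0.18) and Fth1 (-0.04) were not called.

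Of 26 tested genes of stem and multipotent cells 17 were lower and 0 higher (median -1.23, 24 negative). Of these 26, 8 lay under 50 on both GMP arrays and passed the filter only through CMP; of the 15 at 50 on all 4 arrays 10 were lower (median -0.94). From the whole list, 7 were called without the 1st GMP pool and 10 without the 2nd. Meis1, a homeobox partner of Hox proteins, read 635 and 645 in CMP and 133 and 148 in GMP (-2.11 ± 0.16, adjusted p = 0.00055). Mycn read 396 and 318 against 46.6 and 42.1 (-2.75 ± 0.19, adjusted p = 0.00038). Angpt1, a ligand of a stem cell receptor, read 1349 and 1698 against 249.8 and 239 (-2.58 ± 0.17, adjusted p = 0.00036), and that receptor, Tek, read 109 and 86.3 against 18.8 and 14.9 (-1.996 ± 0.24, adjusted p = 0.0023). Mecom, a regulator of long-term stem cells, read 109 and 157 against 14.8 and 16.3 (-2.46 ± 0.29, adjusted p = 0.0023). Both GMP pools lay far below both CMP pools in all 5 genes, and all 5 were called in every leave-one-out. Ifitm1 (0.29) and Ifitm3 (0.34) were the members with positive changes and were not called.

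Of 27 tested cytokine and chemokine receptors 3 were higher (11.1%, beside 11.9% of all genes) and 5 lower (18.5%, beside 11.6%), with a median of 0.04, and 0 were called without the 1st GMP pool, 1 and 1 without the 2nd and 5 and 1 without the 2nd CMP pool. Of the 20 at 50 on all 4 arrays 1 was higher and 4 lower (median 0.0093). A further 2 members passed the filter only through GMP and 1 only through CMP. Ccr2, the chemokine receptor of monocytes, read 104 and 126 in CMP and 436 and 434 in GMP (1.84 ± 0.26, adjusted p = 0.0038), and Cx3cr1 (1.11) and Il4ra (0.78) also rose. Tgfbr2 (-1.49), Flt3 (-1.31), a receptor of lymphoid-primed progenitors, Kit (-1.02), Il1r1 (-0.81) and Il17ra (-0.57) fell. The receptors that name the lineage were not called. Csf3r, for G-CSF, read 164 and 323 in CMP and 347 and 362 in GMP (0.60 ± 0.30, adjusted p = 0.18). Csf1r, for M-CSF, read 336 and 875 against 779 and 1188 (0.81 ± 0.42, adjusted p = 0.19), with the 2nd CMP pool above the 1st GMP pool. Csf2ra had a change of -0.02 ± 0.32 (adjusted p = 0.97).

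Of 25 genes of maturing neutrophils on the array 10 were tested and 4 called higher. The median of the 10, 2.94, is no support for a rise of the list, because 6 of them lay under 50 on both CMP arrays and passed the filter only through GMP, where they are high. Only 3 were at 50 on all 4 arrays, and 1 of these was called. Anxa3, an annexin of neutrophils, read 149.5 and 273 in CMP and 1378 and 1513 in GMP (2.77 ± 0.28, adjusted p = 0.0014) and was called in every leave-one-out. Hp, haptoglobin, read 46.5 and 42.7 against 665 and 790.0 (3.75 ± 0.70, adjusted p = 0.0091). Trem3 (3.77) and Clec5a (3.39), both myeloid receptors, were the others called. S100a8 read 179 and 103 against 898 and 1753 (3.11 ± 2.01, adjusted p = 0.29). The G4/G5 CMP pools, which enter the shared spread, read 16783 and 44.3 for S100a8. Without the 1st or the 2nd of them all 10 members were called, S100a8 at an adjusted p of 0.00082 or 0.00080. Without the 1st GMP pool 1 member was called, without the 2nd 2, and without the 2nd CMP pool 3. A further 15 listed genes did not pass the filter. Among them the secondary granule genes Ngp (12.4 and 29.4 against 22.1 and 258), Camp (6.77 and 4.09 against 10.4 and 120.0) and Ltf (7.09 and 20.5 against 12.04 and 62.6) were raised in the 2nd GMP pool and not in the 1st. The summed signal of all 15 was 186 and 299 in CMP and 348 and 887 in GMP. What part mature cells had in the values of this list was not tested; without the 2nd GMP pool its median was 2.67.

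Of 16 tested monocyte, macrophage and dendritic genes 7 were higher and 0 lower (median 0.91). Of the 12 at 50 on all 4 arrays 5 were higher (median 0.78), while 3 passed the filter only through GMP. Beside Ccr2, these were Cd14 (12.7 and 6.06 in CMP, 85.6 and 105 in GMP, change 2.46), F13a1 (1.65), Slpi (1.54), Cx3cr1 (1.11), Emb (1.08) and Ly86 (1.04). H2-Ab1 (-0.09), a class II antigen of dendritic and B cells, and Ctss (0.05) were not called. After removal of the 1st GMP pool, 0 members were called and without the 2nd 2. Of the 5 tested subunits of the phagocyte NADPH oxidase all 5 had positive changes (median 1.13) and Ncf1 (1.56) and Ncf4 (1.13) were called, but neither GMP pool could be left out without losing both. Cybb, the catalytic subunit, read 19.1 and 22.6 in CMP and 156 and 195 in GMP (2.58 ± 0.94, adjusted p = 0.079). It was the 1 subunit that passed the filter only through GMP, and the 4 at 50 on all 4 arrays had a median of 1.01. Of 25 lysosomal genes 9 were higher and 0 lower (median 0.33). Of the 21 at 50 on all 4 arrays 6 were higher (median 0.28), while 3 passed the filter only through GMP. Ctsz, cathepsin Z, read 599 and 534 against 2592 and 2538 (2.16 ± 0.14, adjusted p = 0.00036) and was the 1 lysosomal gene still called without the 1st GMP pool; without the 2nd, 4 were called.

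Of 18 eosinophil, basophil and mast cell genes on the array 11 were tested, 5 were higher and 0 lower (median 1.49). That count and median are partly set by the filter, which 3 members, Epx and Prg3 among them, passed only through GMP; of the 7 at 50 on all 4 arrays 2 were higher (median 0.85). Prg2, eosinophil major basic protein, read 108 and 34.8 in CMP and 1119 and 2125 in GMP (4.42 ± 0.97, adjusted p = 0.015). Epx, eosinophil peroxidase, read 19.9 and 4.49 against 200.4 and 318 (3.66 ± 0.65, adjusted p = 0.0079), and Prg3 read 0.58 and 2.10 against 74.3 and 103 (3.11 ± 0.70, adjusted p = 0.017). All 3 eosinophil granule genes were low in both CMP pools and higher in the 2nd GMP pool than in the 1st. Mcpt8, a basophil protease, read 218 and 244 against 799.6 and 908 (1.84 ± 0.19, adjusted p = 0.0015) and was called in every leave-one-out, and Hdc, which makes histamine, rose by 2.07. The mast cell genes Cpa3 (0.22) and Ms4a2 (0.52) overlapped. In a fit lacking the 1st GMP pool, Mcpt8 alone was called and without the 2nd 2 members were.

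**Figure D3:**
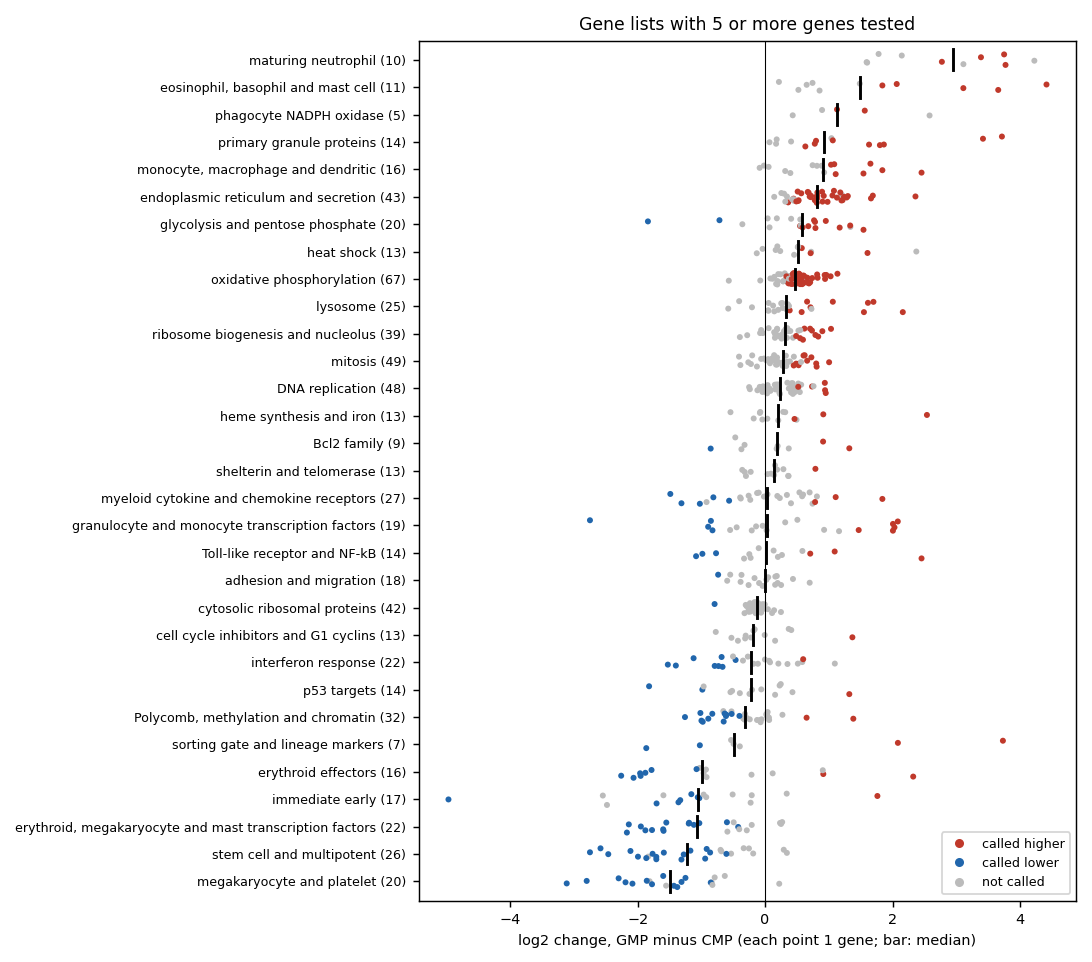
Log2 change (GMP minus CMP) of every tested gene in the 31 lists with 5 or more tested genes, ordered by the list median (black bar), with red and blue for genes called higher and lower and grey for genes not called; the number after each name is that of genes tested. Members that reached 50 in 1 cell type alone are included. Lists run from a median of 2.94 for maturing neutrophil genes to -1.49 for megakaryocyte genes.

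Markers of lymphocytes and stroma were mostly below the filter. Of 15 B lymphoid genes on the array 12 did not pass it; Cd79a did not exceed 6.98 and Pax5 did not exceed 11.5 on the normal arrays. Il7r read 101 in the 1st CMP pool and 9.001 in the 2nd, and 1.55 and 7.48 in GMP, and Dntt likewise was higher in the 1st CMP pool. Of 13 T and NK genes 11 did not pass, and Cd3e did not exceed 8.94. Of 15 stromal and endothelial genes 12 did not pass, and 7 of these stayed under 20 on all 4 arrays. Cdh5 and Col1a1 did not exceed 8.98 and 8.59. The brighter ones included Emcn (43.8 and 60.9 in CMP, 21.7 and 16.5 in GMP) and Vcam1 (7.80 and 9.70 against 39.4 and 63.2). All 3 tested members had negative changes, and 2 of them, Col1a2 among these, passed the filter only through CMP. Pdgfrb, a growth factor receptor, passed with 491 and 715 in CMP and 167 and 245 in GMP (-1.51 ± 0.24, adjusted p = 0.0059) and Col1a2 fell by 1.81, neither called without the 1st GMP pool, nor Col1a2 without the 1st CMP pool. Lat, counted among T cell genes but also used by megakaryocytes and mast cells, fell by 1.43 and was called in every leave-one-out.

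The endoplasmic reticulum and secretion list had the largest share of its tested members called among the 34 lists. Of 43 tested members 34 were higher (11.9% of all genes were), 0 were lower and all 43 changes were positive, with a median of 0.81. Sdf2l1, a chaperone cofactor, read 295 and 225 in CMP and 1456 and 1278 in GMP (2.36 ± 0.21, adjusted p = 0.00097). Manf, a secreted protein induced by unfolded protein, read 1010 and 880.2 against 3333 and 2820 (1.69 ± 0.13, adjusted p = 0.00055). The disulfide isomerases Pdia4 (198 and 175 against 631 and 591, change 1.66) and Pdia6 (647 and 729.5 against 1738 and 1671, change 1.30) rose as well. In these 4 genes both GMP pools lay above both CMP pools, and all 4 were called in every leave-one-out. Xbp1, the transcription factor of the unfolded protein response, read 1425 and 1531 in CMP and 3194 and 2980 in GMP (1.06 ± 0.13, adjusted p = 0.0025). Ssr2 (1.24) and Ddost (1.13), parts of the translocon and of the oligosaccharyl transferase, also rose. Hyou1, a chaperone, read 251 and 242 against 854 and 439 (1.28 ± 0.37), and its call was lost without 5 of the arrays. Calr (0.46), Stt3b (0.30) and Srp14 (0.14) were not called. Without the 1st GMP pool 10 members were called and the median was 0.73; without the 2nd 22 were called.

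**Figure D4:**
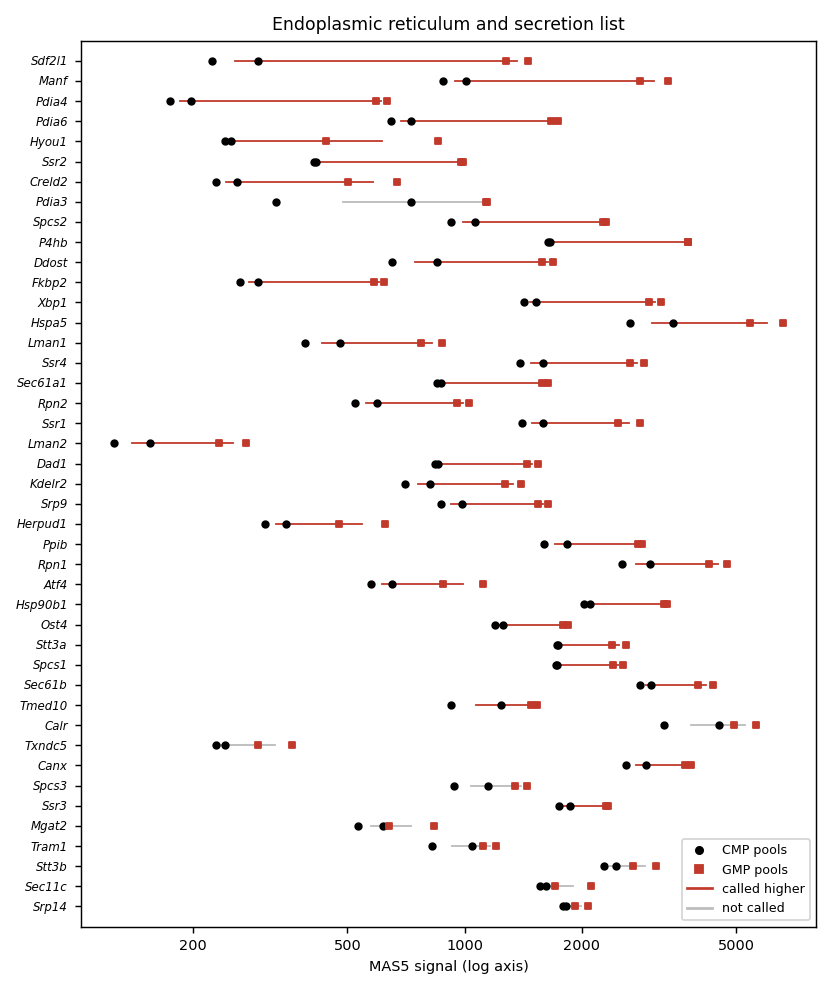
MAS5 signal on a log axis for each of the 43 tested genes of the endoplasmic reticulum and secretion list, circles for the CMP pools and squares for the GMP pools of normal mice, joined by a line between the geometric means, red where the gene was called higher. All 43 lines run from lower CMP to higher GMP, the longest for Sdf2l1.

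A published element of genes that respond to endoplasmic reticulum stress, CCAAT and CCACG separated by 9 bases of any kind, was searched on both strands of the same promoter windows after the list's values had been seen. It stood in 6 of 34 list members with a promoter (17.6%), in 8 of 821 promoters of higher genes (0.974%), in 0 of 792 of lower genes, in 12 of 6934 of tested genes (0.173%) and in 35 of all 27025 (0.13%). The elements of the 8 higher genes are printed in the direction that reads CCAAT to CCACG, with the fixed letters in capitals and the spacer in lower case; Hsp90b1 has 2.
Canx: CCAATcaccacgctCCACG
Creld2: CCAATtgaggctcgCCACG
Dnajc3: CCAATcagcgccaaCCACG
Ero1b: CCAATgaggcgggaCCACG
Hsp90b1: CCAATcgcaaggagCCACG
Hsp90b1: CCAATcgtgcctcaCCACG
Hspa5: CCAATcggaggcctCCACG
Pdia6: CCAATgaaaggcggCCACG
Syvn1: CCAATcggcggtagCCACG
The changes of these genes were 0.98 for Hspa5, 0.67 for Hsp90b1, 0.45 for Canx, 1.22 for Creld2, 1.30 for Pdia6, 1.15 for Dnajc3, 0.69 for Ero1b and 0.68 for Syvn1, all called. The element was also found in front of Calr (0.46, not called), Alg12 (0.13), Pan2 (0.22) and Adcy3 (-0.32), which were not called. The windows of Creld2 and Alg12 overlap on opposite strands and share 1 element. The whole windows of the chaperones Hspa5 and Hsp90b1 show where the elements lie, beginning 65 bases before the start in Hspa5 and 212 and 107 before it in Hsp90b1. Capitals mark the elements and, in Hsp90b1, also PU.1, KLF and E-box letters.
Hspa5, chr2:34771840-34772139, plus strand: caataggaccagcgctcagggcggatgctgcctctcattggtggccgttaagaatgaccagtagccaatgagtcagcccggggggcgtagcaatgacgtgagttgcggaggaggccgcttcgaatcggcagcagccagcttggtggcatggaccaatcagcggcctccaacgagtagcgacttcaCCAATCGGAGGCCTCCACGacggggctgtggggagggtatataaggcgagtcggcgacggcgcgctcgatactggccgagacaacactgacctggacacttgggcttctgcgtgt
Hsp90b1, chr10:86705395-86705694, minus strand: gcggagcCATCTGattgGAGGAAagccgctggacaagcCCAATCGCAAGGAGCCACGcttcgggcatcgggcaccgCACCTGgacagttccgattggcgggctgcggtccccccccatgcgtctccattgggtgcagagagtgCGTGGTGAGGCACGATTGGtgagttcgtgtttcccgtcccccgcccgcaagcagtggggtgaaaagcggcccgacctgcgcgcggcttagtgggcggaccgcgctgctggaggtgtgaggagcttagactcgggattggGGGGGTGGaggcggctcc
Hspa5, the main chaperone of the compartment, read 3434 and 2665 in CMP and 6584 and 5423 in GMP, and Hsp90b1 read 2097 and 2029 against 3253 and 3321, so that the groups did not overlap in either.

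Energy metabolism genes rose with smaller changes. Of 67 oxidative phosphorylation genes 43 were higher and 0 lower, and 65 changes were positive (median 0.48). Uqcrc1, a core subunit of complex III, read 594 and 678 in CMP and 1445 and 1368 in GMP (1.14 ± 0.16, adjusted p = 0.0037). Atp5g1, a subunit of the ATP synthase ring, read 1078 and 994 against 2088 and 1962 (0.96 ± 0.12, adjusted p = 0.0028) and was the 1 member called without the 1st GMP pool; 11 were called without the 2nd and 22 without the 2nd CMP pool, the median staying between 0.41 and 0.52. Of 20 glycolysis and pentose phosphate genes 10 were higher and 2 lower (median 0.57). Pgd (1.54), which makes NADPH in the pentose phosphate pathway, Pfkp (1.34), Pkm (1.17), Taldo1 (0.95) and Aldoa (0.79) rose. Slc2a3, a glucose transporter, fell from 727 and 804 to 183 and 233 (-1.84 ± 0.20, adjusted p = 0.0016), and Hk1 fell by 0.72. Pfkp rose and Slc2a3 fell in every leave-one-out, the only members of this list still called without the 1st GMP pool.

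Of 48 DNA replication genes 5 were higher and 0 lower (median 0.23), a share of 10.4% that lies near the 11.9% of all genes and is no result about the list. They were Rrm2 (0.95), Cdc45 (0.94), Tk1 (0.94), Gmnn (0.74) and Tipin (0.52). Of 49 mitosis genes 11 were higher (22.4%) and 0 lower (median 0.28), led by Aurka (1.00), Birc5 (0.81) and Aurkb (0.80). Pcna, the replication clamp, read 5162 and 4930 in CMP and 6213 and 5587 in GMP and was not called (0.22 ± 0.12). Ccne1, cyclin E1, was the 1 called gene of 13 cell cycle inhibitors and G1 cyclins (82.0 and 38.6 against 167 and 159, change 1.37). None of these replication, mitosis or cyclin genes was called without the 1st GMP pool; without the 1st CMP pool 17 replication genes were called, and without either G4/G5 CMP pool 13. Ribosome biogenesis genes had 10 of 39 higher and 0 lower (median 0.32), among them Srm (1.03), Bysl (0.90) and Nolc1 (0.83), with 0 called without the 1st GMP pool and 2 without the 2nd CMP pool. Among cytosolic ribosomal proteins, of 42 tested 1 was lower, Rpl27a, 0 were higher and 38 changes were negative (median -0.13). That median was 0.04 without the 2nd CMP pool and -0.30 without the 1st, when 8 were called lower.

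Of 17 tested immediate early genes 7 were lower in GMP and 1 higher (median -1.06). A set of 6 passed the filter only through CMP, and of the 8 at 50 on all 4 arrays 2 were lower and 0 higher. The 2nd CMP pool read 1920 for Egr1, 3266 for Fos, 905 for Dusp1 and 411 for Zfp36, and the 1st CMP pool read 254, 66.2, 65.7 and 60.7. Their summed signal over the list was 4244 and 12450 in CMP and 3644 and 3714 in GMP. Without the 2nd CMP pool the median was -0.40, 2 genes were lower, and Fos had a change of 0.17 in place of -2.55. Nr4a2, which read 52.2 and 53.3 in CMP and 19.3 and 16.997 in GMP (-1.16 ± 0.29, adjusted p = 0.023), did not show that gap between the CMP pools, yet its call too was lost without any 1 of the normal pools. Gadd45b, an inducible stress gene, moved the other way, from 55.9 and 46.0 to 157 and 244 (1.76 ± 0.27, adjusted p = 0.0047), and was called in every leave-one-out. Among heat shock genes, Hspa1b read 313 and 18.8 in CMP and 666 and 359 in GMP (2.37 ± 0.91, adjusted p = 0.090). Of 13 in that list Hspa1a (1.61), Hspa4 (0.71) and Hspe1 (0.58) were higher, and 0 were called without the 2nd CMP pool, without the 1st GMP pool or without either G4/G5 GMP pool.

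Of 32 Polycomb, methylation and chromatin genes 12 were lower and 2 higher (median -0.32), with 2 lower and 1 higher without the 1st GMP pool and 4 lower and 1 higher without the 2nd. Nipbl, the cohesin loader, read 612 and 561 in CMP and 255 and 224 in GMP (-1.26 ± 0.14, adjusted p = 0.0019), and Tet1 (-1.02), Kmt2a (-0.999), Kdm5a (-0.98) and Kdm6a (-0.89) fell as well. The pools of each group lay close together for Nipbl, which was called in every leave-one-out. The 2 that rose, Idh1 (1.38) and Idh2 (0.65), encode NADP-dependent isocitrate dehydrogenases. Ezh2 (-0.09), Suz12 (-0.07) and Dnmt1 (0.03) were not called.

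Of 22 interferon response genes 8 were lower and 1 higher (median -0.23). Rtp4 (-1.53), Rsad2 (-1.40), Gbp2 (-1.12), Ifih1 (-0.79) and Ifit2 (-0.73) led the falls and Psmb8 (0.60), an immunoproteasome subunit, rose. None was called without the 1st GMP pool and 1 was without the 2nd; without the 1st CMP pool 4 were lower and 2 higher. Of 14 Toll-like receptor and NF-kB genes the receptor components Cd14 (2.46), Tlr4 (1.09) and Myd88 (0.71) were higher (21.4%, beside 11.9% of all genes). Nfkbie (-1.08), Nfkbiz (-0.98) and Tnfaip3 (-0.77) were lower (21.4%, beside 11.6%). Of the 9 at 50 on all 4 arrays 1 was higher and 1 lower, while 2 members passed the filter only through GMP. No call of this list held in every leave-one-out. Of 9 Bcl2 family genes Bak1 (0.91) and Pmaip1 (1.32), both promoting cell death, were higher (22.2%, beside 11.9% of all genes). Bcl2l11 (-0.85), which promotes it too, was lower (11.1%, beside 11.6%). Of these, Pmaip1 passed the filter only through GMP. Pmaip1 had a change of 0.67 without the 2nd CMP pool (adjusted p = 0.21), and neither it nor Bcl2l11 was called without that pool or without any 1 GMP pool of either genotype. Bak1 was not called without either normal GMP pool. Bcl2 had a change of -0.47 ± 0.20 (adjusted p = 0.12). Of 14 p53 target genes Trp53inp1 (-1.82) and Sesn1 (-0.99) were lower and Pmaip1 was higher. These shares of 14.3% and 7.1% lie near the 11.6% and 11.9% of all genes and are no result about the list. Of 13 shelterin and telomerase genes only Nhp2 (0.79), a subunit shared with the ribosomal RNA machinery, was called, and of 18 adhesion genes only Itga4 (-0.74). After removal of the 1st GMP pool, 0 were called in each of these last 4 lists.

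In G4/G5 mice the same step gave 391 higher (4.66%) and 560 lower genes (6.67%). With the pools matched between genotypes within a cell type, as the series text pairs them, these were 618 and 877, and the normal counts were 1210 and 1249. Of the 997 genes higher in normal GMP 975 also had a positive change in G4/G5, where 80.1% of all tested genes had the same sign in both, and 316 (31.7%) were called there too. Of the 975 lower genes 959 had a negative change and 441 (45.2%) were called. Conversely 80.8% of the genes higher and 78.8% of those lower in G4/G5 were called in normal cells. The median size of the change of the higher genes was 0.73 in normal and 0.50 in G4/G5 cells, and that of the lower genes 0.84 and 0.64, where the normal values are those that chose the genes. No gene passed the test of the difference between the normal and the G4/G5 change with limma (0 at adjusted p under 0.05, 365 at unadjusted p under 0.05, smallest adjusted p 0.97). Without the 1st normal CMP pool 3 genes passed it, without the 1st G4/G5 CMP pool 1, and without the 2nd G4/G5 CMP pool 8. Leaving out either G4/G5 GMP pool reduced the G4/G5 calls to 76 or 124, leaving out either normal GMP pool to 472 or 469, and leaving out the 2nd G4/G5 CMP pool to 627.

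List medians stand side by side for the genotypes, with no test of the medians. The median of the erythroid and megakaryocyte factors was -1.08 in normal and -1.15 in G4/G5 cells, that of stem cell genes -1.23 and -1.18, and that of megakaryocyte genes -1.49 and -1.60. Primary granule proteins had 0.92 and 0.56, maturing neutrophil genes 2.94 and 1.81, monocyte genes 0.91 and 0.18, and eosinophil and basophil genes 1.49 and 0.29. The filter used the normal arrays alone, so the medians of the 2 genotypes are not like for like. It was passed only through normal GMP by 6 neutrophil, 3 monocyte and 3 eosinophil and basophil members. In the stem cell and megakaryocyte lists 8 and 7 members passed it only through normal CMP, as did 1 of the erythroid and megakaryocyte factors. Ctsz had a change of 2.16 in normal and 1.09 in G4/G5 cells, a difference of 1.07 ± 0.20 with an adjusted p of 0.97 (unadjusted p = 0.00056). Mycn, F2r, Slc14a1 and Aldh1a1 fell by at least as much in G4/G5 cells (-3.31, -3.48, -3.50 and -3.47). The level of the granule genes in the 1st G4/G5 CMP pool stands beside these medians: Prg2 read 2951 there and 230 in the 2nd G4/G5 CMP pool. The part of that pool in the lower medians was not tested.

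**Figure D5:**
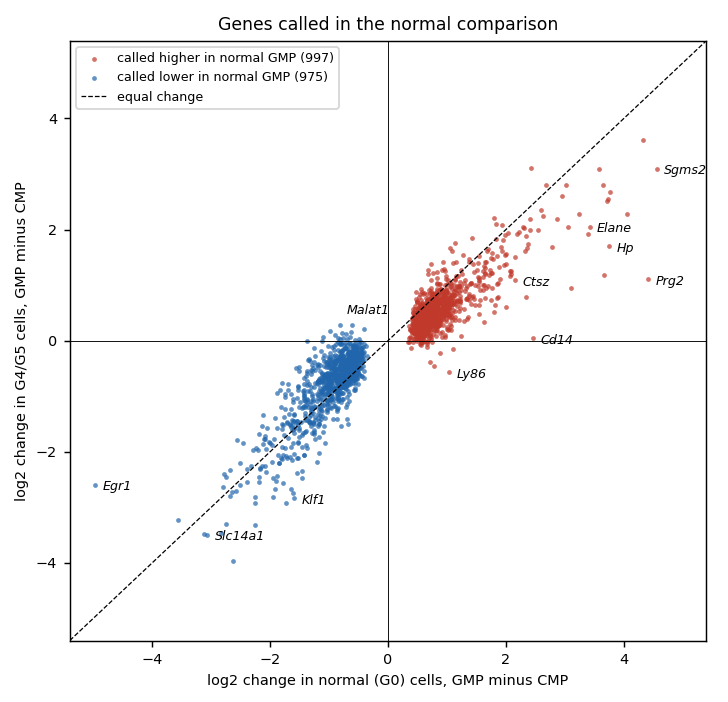
Log2 change (GMP minus CMP) in G4/G5 cells (vertical axis) against that in normal cells (horizontal axis) for the 997 genes called higher (red) and 975 called lower (blue) in normal GMP, with a dashed line of equal change. Most points lie in the quadrants of equal sign; Ly86, Malat1 and a few others lie across the zero line, and none of the differences passed the test.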

How the data were processed

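The authors deposited MAS5 signals (a microarray intensity, on a linear scale) for 45101 probe sets of an Affymetrix Mouse Genome 430 2.0 array, labelled from amplified RNA, per the labels' protocols and the submitters' processing notes. The scaled trimmed mean of each array was 100. The sorting gates are not given in the sources used here. Of the probe sets, 34945 had 1 gene symbol in the platform annotation, 932 several and 9160 none, and 64 were controls; symbols were checked against RefSeq (GRCm38.p6), which held 34741.

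Signals were converted here to log2(signal + 10). Genes with a signal of 50 on at least 2 of the 4 normal arrays entered limma 3.58.1, run under R 4.3.3 (a mean per group, 8 arrays, 4 residual degrees of freedom, eBayes with an intensity trend, Benjamini-Hochberg adjustment, threshold 0.05). All 4 groups share 1 estimate of the spread. The number of arrays limits the precision; the median SE was 0.188. The script was tested on simulated data.

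The members and the 34 gene lists were chosen with earlier results of these data known. Named genes were the 12 largest non-overlapping rises and falls among called genes, every member of short lists and of the transcription factor, receptor and gate lists, the largest called changes and the uncalled genes of highest signal in longer lists, and those with the smallest p for the difference between genotypes; other named genes were chosen after their values were seen, among them Elane, Hspa5 and Hsp90b1 for their promoters. The series text matches normal and G4/G5 pools of 1 number within a cell type, and the deviations of such pools correlated at 0.274 in CMP and 0.149 in GMP over 8395 genes. Alternatives were 21 settings of pseudocount, filter, normalization, probe set, model and arrays left out.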

Additional observations from a re-analysis of the deposited data

Results flagged for a closer look

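For 11 named genes all arrays moved one way in normal cells and the opposite way in G4/G5 cells. Only named genes were searched and no share over all tested genes was computed, so this count is no result by itself. In normal cells alone the arrays did not overlap in 32.9% of tested genes with GMP higher and 33.1% with GMP lower. The values are the normal change minus the G4/G5 change on the log2 scale. With limma none passed the test of that difference at an adjusted p under 0.05, where each had 0.97, and in sets of 2 pools such opposite moves can arise from the spread of the arrays.

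Ly86, a partner of a Toll-like receptor relative, read 201 and 285 in CMP and 455 and 552 in GMP of normal mice and 826 and 732 against 484 and 559 in G4/G5, a difference of 1.61 ± 0.27 (unadjusted p = 0.00024). The difference was -1.11 for the nuclear RNA Malat1, 1.24 for the interleukin 4 receptor gene Il4ra, 0.783 for the mitotic ubiquitin enzyme Ube2c and -1.14 for the ubiquitin ligase Nedd4. It was 0.744 for Ifitm3, 0.33 for the proteoglycan gene Srgn, 0.677 for Plac8, 0.852 for the chaperone partner Bag3, 0.32 for Ten1 and 0.465 for Cd48. Of the 11, Ly86, Malat1, Il4ra and Ube2c were called in normal cells and Nedd4 in G4/G5 cells.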

How the results depend on the processing

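With 2 pools a group, the number of calls depended on the arrays. Of the 1972 called genes 1956 kept their sign under each of the 21 alternatives. The sign could not change where arrays were left out, because no called gene overlapped between the groups. Only settings such as another normalization or choice of probe set could change it, so this count says little about direction. Leaving out 1 array at a time gave 143 to 2580 calls in normal cells (65 to 1307 higher, 78 to 1273 lower), 76 to 1375 in G4/G5 cells (11 to 602 and 65 to 779), and 0 to 8 for the difference between them (0 to 8 and 0 to 2). With no signal filter, which tests more genes, 1256 were called in normal cells (627 higher, 629 lower) and 491 in G4/G5 cells (183 and 308). With a replicate block shared by the genotypes of a cell type, G4/G5 cells had 1495 calls (618 higher, 877 lower) and normal cells 2459 (1210 and 1249). The numbers of CMP and GMP pools are not stated to mark shared mice. Same-numbered pools correlated at 0.231 in normal and 0.0465 in G4/G5 cells, and with that replicate block 1078 genes were higher and 1011 lower in normal cells. The median of the Bcl2 family turned to -0.071 with a signal minimum of 100, and ran from -0.26 (without the 1st CMP pool) to 0.21 with 1 array left out; the cause was not tested. Of the other list medians 670 moved by less than the spread between pools and 42 by more. Of the named gene values 5941 stayed on their side of the threshold (uncalled genes whose sign changed included), 425 lost and 154 gained a call. Genes near a signal of 50 lie close to the background of the array, which limits their changes.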

Other observations

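Of the 141 genes called in every leave-one-out, 93 stood in none of the lists, 41 higher and 52 lower in GMP. They were picked out after their values were seen. With no fixed list and no count of related genes behind them, they are given as single values, and no theme was tested. The sphingomyelin synthase Sgms1 fell from 368 and 507 in CMP to 117 and 115 in GMP (-1.81 ± 0.20, limma adjusted p = 0.0019), the lactosylceramide synthase B4galt6 rose from 100.3 and 118 to 926 and 889.5 (2.95 ± 0.29, limma adjusted p = 0.0014), and the sphingosine-1-phosphate transporter Spns2 fell from 730.0 and 866 to 180.0 and 222 (-1.94 ± 0.25, limma adjusted p = 0.0028). The groups did not overlap in any of the 3.

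Among the other rises, Fkbp11 rose by 2.16, Tmed3 by 1.48, Ero1a by 1.24, Dnajb11 by 1.23, Erp29 by 1.21, Lrrc59 by 1.17, Ostc by 1.11 and Cope by 1.00 on the log2 scale. Among the falls were Ctla2b (-2.11), a relative of Ctla2a, the nuclear receptor corepressor Nrip1 (-2.02), the monoamine transporter Slc18a2 (-1.92), the RNA-binding protein Zfp36l1 (-1.75) and the nuclear factor Dach1 (-1.75).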
